A study of Mus musculus with 27 samples.

Results

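The peripheral nerve of mouse tibialis anterior muscle was followed after volumetric muscle loss (VML) through 8 genes known from Schwann cells or from axons. These were Sox10, Egr2, Mbp, Pmp22, Prx, S100b, Ngfr and Gap43, found by symbol among the 54532 genes of the expression table. All 8 were present once in the table and were measured in all 27 samples. VML is a surgical loss of muscle tissue, made here by excising 40% of the tibialis anterior of male C57BL/6 mice aged 8 weeks. The 5 groups were uninjured muscle, described in the labels only as control (5 samples), and muscle at 3 (5 samples), 7 (6), 14 (6) and 21 (5) days after the excision. All groups were of the same wild-type strain, and no transgene, drug or implant was named for any of them. The excision was unilateral in the design text and bilateral in the methods, and neither source said whether samples came from separate animals. P-values therefore measure the spread between these samples, which may be partly technical.

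Schwann cells are the glia of peripheral nerves. Myelinating Schwann cells wrap single large axons in compact myelin under the control of the transcription factors Sox10 and Egr2, whereas non-myelinating cells hold bundles of thin axons. When an axon is cut, the Schwann cells below the cut are known to lower their myelin genes and to express the neurotrophin receptor Ngfr. Regrowing axons are known for carrying the growth cone protein Gap43. In bulk tissue, fewer cells of a type and less RNA per cell cannot be told apart.

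Between 14376395 and 24436763 reads were assigned to genes per sample (median 17398586). Expression was given as FPKM, the reads per unit of gene length and of sequencing depth, so that levels of different genes can be compared. The number of reads to which the deposited FPKM was scaled lay between 0.747 and 1.48 times the reads counted in that sample, with a group mean of 0.782 in uninjured muscle and 1.25 at day 3. Rescaling to the own total raised the median log2 fold change of all tested genes from 0.01 to 0.40 at day 3, and changes below are relative to the deposited scale. The 5 muscle fibre genes of the marker list summed to 14047 FPKM or more in every sample, and the 6 Schwann cell markers Sox10, S100b, Cdh19, Erbb3, Mbp and Prx were above 0 in all 27 samples.

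A single sample stood apart from all others. Day 7 replicate 6 had the highest level of the 27 samples for 6 of the 8 genes, namely Mbp, Pmp22, Prx, S100b, Sox10 and Gap43. Its level was 6.17 times that of the next highest sample for Prx, 6.09 times for S100b, 4.79 times for Mbp, 4.24 times for Sox10 and 3.66 times for Pmp22, but 1.12 times for Gap43. Ngfr was not among them, with 0.442 FPKM against a median of 0.808 in the other day 7 samples. The summed level of 12 further myelin genes was 96.7 FPKM in this sample and 4.27 to 21.2 FPKM in the other day 7 samples. Its 7 macrophage genes summed to 62.6 FPKM, the lowest of day 7 (median 319), and its satellite cell and myoblast genes to 30.1 FPKM, within the uninjured range of 23.4 to 33.2. Its 5 adipocyte genes reached 298 FPKM, against 62.7 to 124 in uninjured muscle. The part of these differences in the results was not tested. Values without day 7 replicate 6 are given for the day 7 fold changes of the 8 genes, for each count of called genes and for the nerve lists where its absence changed a call.

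**Figure D1:**
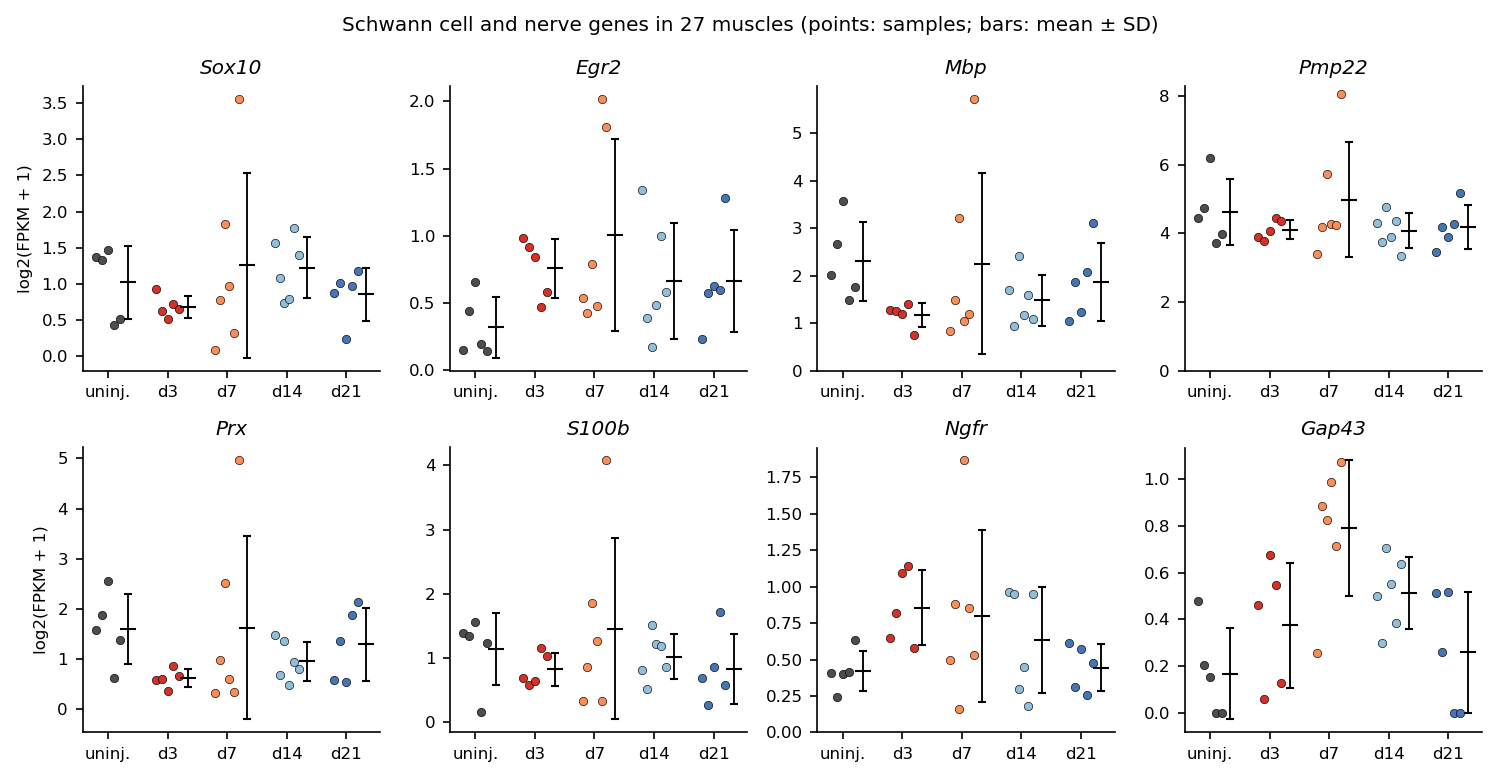
Level of each of the 8 genes in each of the 27 muscles (y axis, log2(FPKM + 1); x axis, uninjured and 3, 7, 14 and 21 days after VML); points are samples in the order of their replicate number, and the dash with bars is the mean ± SD of the group. The last point of day 7, replicate 6, lies above every other sample for Sox10, Mbp, Pmp22, Prx and S100b, but in the middle of its group for Ngfr.

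The genes differed widely in level. Pmp22 had the highest median over the 27 samples, at 17.9 FPKM, followed by Mbp at 1.80 FPKM. Sox10 (0.895), Prx (0.826) and S100b (0.810) had medians close to each other, and the ranges of these 3 genes over the samples overlapped. Egr2 (0.498), Ngfr (0.485) and Gap43 (0.394) were the lowest, also with overlapping ranges. The median number of reads per sample was 789 for Pmp22, 297 for Mbp, 89 for Prx, 44 for Sox10, 30 for Egr2, 28 for Ngfr, 27 for S100b and 10 for Gap43. All 8 genes passed the filter of at least 0.5 FPKM in at least 5 samples. Gap43 passed with 8 samples, 5 of them from day 7, so that its day 7 level decided its inclusion.

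Sox10 is the transcription factor that defines the Schwann cell lineage and lies on chromosome 15 (GRCm38, chr15:79154908-79165240, minus strand). Uninjured muscle had 1.57, 1.52, 1.76, 0.346 and 0.425 FPKM of Sox10 in replicates 1 to 5. The day 3 samples had 0.895, 0.541, 0.422, 0.647 and 0.570 FPKM, and the day 21 samples 0.835, 1.01, 0.176, 0.960 and 1.26 FPKM. The day 7 level of Sox10 ran from 0.061 through a median of 0.836 to 10.8 FPKM, and the day 14 level from 0.665 through 1.38 to 2.43 FPKM. Uninjured muscle thus held both high and low samples, and every injured group overlapped with it. Across the groups the medians were highest in uninjured muscle (1.52 FPKM) and lowest at day 3 (0.570), but no neighbouring groups in this order were separated. The log2 fold change from uninjured muscle was -0.34 (SE 0.41, adjusted p = 0.544) at day 3, and its adjusted p was at least 0.690 at the later times in the limma fit.

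Egr2 is the zinc finger factor that drives the myelin programme in Schwann cells, and is also known as an immediate early gene and from macrophages. It lies at chr10:67535475-67542188 on the plus strand. Uninjured muscle had 0.110, 0.359, 0.577, 0.143 and 0.101 FPKM of Egr2. Day 3 muscle had 0.973, 0.882, 0.792, 0.387 and 0.498 FPKM, so that 3 of 5 samples exceeded every uninjured sample. At day 7 the level ran from 0.341 through a median of 0.587 to 3.05 FPKM, and 3 of 6 samples exceeded the uninjured range. Day 14 spanned 0.126 to 1.54 FPKM with a median of 0.450, and day 21 muscle had 0.174, 0.486, 0.544, 0.509 and 1.42 FPKM. The order of the medians was day 3, day 7, day 21, day 14 and uninjured, with overlap between all neighbours.

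Egr2 rose at day 7 on the deposited scale, with a log2 fold change of 0.69 (SE 0.26, limma adjusted p = 0.0459, n = 6 against 5). The 2 highest samples were day 7 replicate 5 (3.05 FPKM) and replicate 6 (2.50 FPKM). Without replicate 6 the change was 0.53 with a limma adjusted p of 0.106, and without replicate 5 it was 0.49 with an adjusted p of 0.139. The call was also lost when 1 of 11 other samples was left out. Day 7 replicate 5 also had 2424 FPKM of the macrophage genes, the highest of its group, and 8.92 FPKM of the 12 myelin genes. The part of the macrophage genes in the Egr2 level was not tested.

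The 250 bases before a transcription start of Egr2 are shown because Egr2 is 1 of the 2 genes that passed the test and because the CArG box, the site of serum response factor, was among the motifs searched. Start site windows came from RefSeq (GRCm38.p6), and 5 of the 8 genes had at least 1 window. Capitals mark the CArG box of this window at chr10:67537619-67537868, 5′ to 3′ on the plus strand.
Egr2: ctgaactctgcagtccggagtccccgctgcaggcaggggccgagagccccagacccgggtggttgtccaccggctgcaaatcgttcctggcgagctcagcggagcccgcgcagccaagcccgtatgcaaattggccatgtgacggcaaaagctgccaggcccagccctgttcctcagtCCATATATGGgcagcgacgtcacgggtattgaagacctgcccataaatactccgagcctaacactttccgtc
A CArG box was found in 4 of the 5 Egr2 windows, and in 1.47% of all 32851 windows. Of these 4, the 3 windows that overlap each other hold the same site, the one shown. The window at chr10:67537316-67537565 holds a different CArG box, CCTTTTTTGG. No window of the other 4 genes held a CArG box, the SOX motif ACAAAG or ACAATG (25.2% of all windows) or the EGR motif GCGTGGGCG or GCGGGGGCG (3.06%), on either strand. A match describes letters in the window only.

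Mbp encodes myelin basic protein, which holds the inner faces of the myelin membrane together, and lies on chromosome 18 (chr18:82475146-82585637, plus strand). Uninjured muscle had 3.08, 5.34, 10.9, 1.81 and 2.42 FPKM of Mbp. Day 3 muscle had 1.43, 1.38, 1.31, 1.65 and 0.693 FPKM. All 5 day 3 samples were thus below all 5 uninjured samples, with a median 0.448 times the uninjured one. Among all tested genes, 16.5% had day 3 samples all below the uninjured ones.

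The log2 fold change of Mbp at day 3 was -1.12 (SE 0.63, limma adjusted p = 0.155). An exact two-sided permutation test of the 5 against 5 samples gave p = 0.00794, the smallest that this design allows. It was 1 of 32 such tests of the 8 genes at 4 times, and its p is not adjusted for them. With day 7 replicate 6 left out of the fit, the fold change was -1.12 again and the limma adjusted p was 0.0318. In a fit of the day 3 and uninjured samples alone the adjusted p was 0.0144. With uninjured replicate 3, the highest of its group, left out as well as day 7 replicate 6, the change was -0.81 with an adjusted p of 0.121, and after FPKM had been brought to a common sum it was -0.56 (adjusted p = 0.386). Whether Mbp passed the threshold at day 3 thus differed with the samples in the fit, and its size with the samples and the scaling.

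At day 7 the level of Mbp ran from 0.802 through a median of 1.54 to 52.1 FPKM, and at day 14 from 0.913 through 1.64 to 4.32 FPKM. Day 21 muscle had 1.06, 2.65, 1.37, 3.24 and 7.70 FPKM. At day 7, 4 of the 6 samples were below every uninjured sample and 1 was above all of them. Its log2 fold change was -0.05 (SE 0.60, limma adjusted p = 0.961), and -0.74 (adjusted p = 0.177) without replicate 6. On days 14 and 21 Mbp differed by -0.82 and -0.43, neither past the threshold (limma adjusted p of 0.345 and 0.742). The medians from day 3 to day 21 were 1.38, 1.54, 1.64 and 2.65 FPKM, all below the uninjured 3.08 FPKM, and successive times overlapped.

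Prx encodes periaxin, a scaffold protein of myelinating Schwann cells that links the myelin to the surrounding matrix (chr7:27499324-27520214, plus strand). Uninjured muscle had 1.98, 2.66, 4.87, 0.539 and 1.59 FPKM of Prx, and day 3 muscle 0.498, 0.515, 0.292, 0.826 and 0.590 FPKM. The groups overlapped only through uninjured replicate 4, and 3 of the 5 day 3 samples were below it. At day 7 Prx ran from 0.254 through a median of 0.744 to 30.1 FPKM. The day 14 level spanned 0.398 to 1.79 FPKM with a median of 0.830, and day 21 muscle had 0.489, 1.55, 0.460, 2.65 and 3.39 FPKM. As for Mbp, the medians were lowest at day 3 and day 7 and overlapped between successive times.

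Prx differed from uninjured muscle by a log2 fold change of -0.98 (SE 0.58, limma adjusted p = 0.183) at day 3. Without day 7 replicate 6 the change was -0.98 with an adjusted p of 0.0336, and with only the day 3 and uninjured samples in the fit the adjusted p was 0.0126. Without both uninjured replicate 3 and day 7 replicate 6 the change was -0.74 (adjusted p = 0.116). The day 7 change was 0.02 (adjusted p = 0.981) with all samples and -0.65 (adjusted p = 0.183) without replicate 6. Prx shares 300 bases of exon with the gene Gm15541, and reads there cannot be told apart in libraries without strand.

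Pmp22 encodes a tetraspan membrane protein of compact myelin that fibroblasts and other cells also make (chr11:63128982-63159547, plus strand). Uninjured muscle had 20.8, 25.9, 72.3, 12.3 and 14.9 FPKM of Pmp22, and day 3 muscle 13.8, 12.8, 15.9, 20.8 and 19.6 FPKM. Levels at day 7 ran from 9.68 through a median of 18.2 to 265 FPKM, at day 14 from 9.08 through 16.4 to 26.4 FPKM, and day 21 muscle had 9.94, 17.1, 13.8, 18.3 and 35.3 FPKM. All 5 groups overlapped, with medians between 15.9 FPKM at day 3 and 20.8 FPKM in uninjured muscle.

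The log2 fold change of Pmp22 was -0.51 (SE 0.58, limma adjusted p = 0.508) at day 3. The day 7 value was 0.36 (SE 0.55, adjusted p = 0.654), and -0.25 (adjusted p = 0.666) without replicate 6. The ratio of Pmp22 to Mbp, both in FPKM, was 4.85 to 6.80 in uninjured muscle and 9.28 to 28.3 at day 3. Later ranges were 5.08 to 17 (day 7), 6.10 to 13.8 (day 14) and 4.58 to 10.1 (day 21). The day 3 samples of Mbp alone all lay below the uninjured ones, whereas those of Pmp22 overlapped with them. The ratio was not tested or set against those of other gene pairs. The fibroblast genes summed to 56.5 to 138 FPKM in uninjured muscle and 416 to 860 FPKM at day 3. At day 3, 5 of 6 were called higher, beside 23.4% of all tested genes, and their part in the ratio was not tested.

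The windows before the first transcription start of Pmp22 (chr11:63128732-63128981) and of Prx (chr7:27499074-27499323) are shown in lower case as the myelin genes of the group with a window, 5′ to 3′ on the plus strand. Neither held any of the 3 motifs.
Pmp22: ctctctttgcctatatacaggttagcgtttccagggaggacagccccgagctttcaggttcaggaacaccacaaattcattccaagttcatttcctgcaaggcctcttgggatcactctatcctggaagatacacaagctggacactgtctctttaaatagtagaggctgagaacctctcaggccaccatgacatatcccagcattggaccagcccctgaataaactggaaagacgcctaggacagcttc
Prx: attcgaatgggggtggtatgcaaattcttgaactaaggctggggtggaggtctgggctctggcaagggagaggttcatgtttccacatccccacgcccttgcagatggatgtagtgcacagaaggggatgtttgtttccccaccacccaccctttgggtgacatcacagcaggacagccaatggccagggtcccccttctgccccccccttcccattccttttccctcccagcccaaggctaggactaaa

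S100b encodes a calcium-binding protein of the Schwann cell cytoplasm that adipocytes are also known to make (chr10:76253853-76261159, plus strand). Uninjured muscle had 1.62, 1.53, 1.95, 0.109 and 1.33 FPKM of S100b, and day 3 muscle 0.614, 0.494, 0.562, 1.21 and 1.05 FPKM. The lowest uninjured sample, replicate 4, rested on 2 reads and lay below all day 3 samples. S100b ran from 0.251 through a median of 1.10 to 15.9 FPKM on day 7 and from 0.431 through 1.03 to 1.83 FPKM on day 14, and day 21 muscle had 0.599, 0.202, 0.804, 2.29 and 0.483 FPKM. All groups overlapped, and the log2 fold changes from uninjured muscle ran from -0.32 at day 21 to 0.32 at day 7, with limma adjusted p of 0.616 or more. Without day 7 replicate 6 the day 7 value was -0.21.

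Ngfr encodes the low-affinity neurotrophin receptor, a marker of immature and repair Schwann cells (chr11:95568818-95587735, minus strand). Uninjured muscle had 0.327, 0.185, 0.322, 0.330 and 0.555 FPKM of Ngfr. Day 3 muscle had 0.570, 0.763, 1.13, 1.21 and 0.491 FPKM. Thus 4 of 5 day 3 samples were above all uninjured samples, and the median was 2.33 times as high.

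The log2 fold change of Ngfr at day 3 was 0.44 (SE 0.22, limma adjusted p = 0.112). The exact two-sided permutation test gave p = 0.0159, unadjusted for the 32 tests. Ngfr passed the threshold at day 3 without day 7 replicate 4 (limma adjusted p = 0.0369), in a fit of the 2 groups alone (0.0163) and on the scale of each sample's own reads (0.0334). At day 7 Ngfr ran from 0.119 through a median of 0.625 to 2.65 FPKM, at day 14 from 0.135 through 0.647 to 0.953 FPKM, and day 21 muscle had 0.533, 0.240, 0.485, 0.193 and 0.390 FPKM. The day 7 log2 fold change was 0.38 (SE 0.21, limma adjusted p = 0.175), and 0.43 (adjusted p = 0.132) without replicate 6. It passed with FPKM rescaled to a common sum (0.67, limma adjusted p = 0.0496) and with sample quality weights (0.55, adjusted p = 0.0325). The day 21 samples lay within the uninjured range, with a log2 fold change of 0.02 (SE 0.22, limma adjusted p = 0.967). The medians fell in the order day 3, day 14, day 7, day 21 and uninjured, with overlap between all neighbours.

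Gap43 encodes the growth-associated protein of axon growth cones, which immature Schwann cells are also known to make (chr16:42248442-42340651, minus strand). Uninjured muscle had 0.394, 0.153, 0.112, 0 and 0 FPKM of Gap43, and day 3 muscle 0.378, 0.040, 0.597, 0.461 and 0.093 FPKM. At day 7 the level ran from 0.196 through a median of 0.809 to 1.11 FPKM. It ran from 0.229 through 0.439 to 0.631 FPKM at day 14, and day 21 muscle had 0.428, 0.197, 0.431, 0 and 0 FPKM.

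Gap43 rose at day 7 in 5 of 6 samples above the whole uninjured range. Since it passed the filter through its day 7 samples, its test is given without a filter on low values, where the log2 fold change was 0.62 (limma adjusted p = 0.00636), and 0.57 (adjusted p = 0.0111) without replicate 6. Among the filtered genes the adjusted p was 0.00315 (SE 0.15). The exact two-sided permutation test gave p = 0.00866, unadjusted for the 32 tests. At day 14 the log2 fold change was 0.35 (SE 0.15, limma adjusted p = 0.0959), with 4 of 6 samples above all uninjured ones. The counts were small, with 0 to 8 reads per uninjured sample and 8 to 34 per day 7 sample, and 0 of 14391736 or more reads in a sample allows up to 3 reads. Which cells gave the Gap43 reads was not tested.

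**Figure D2:**
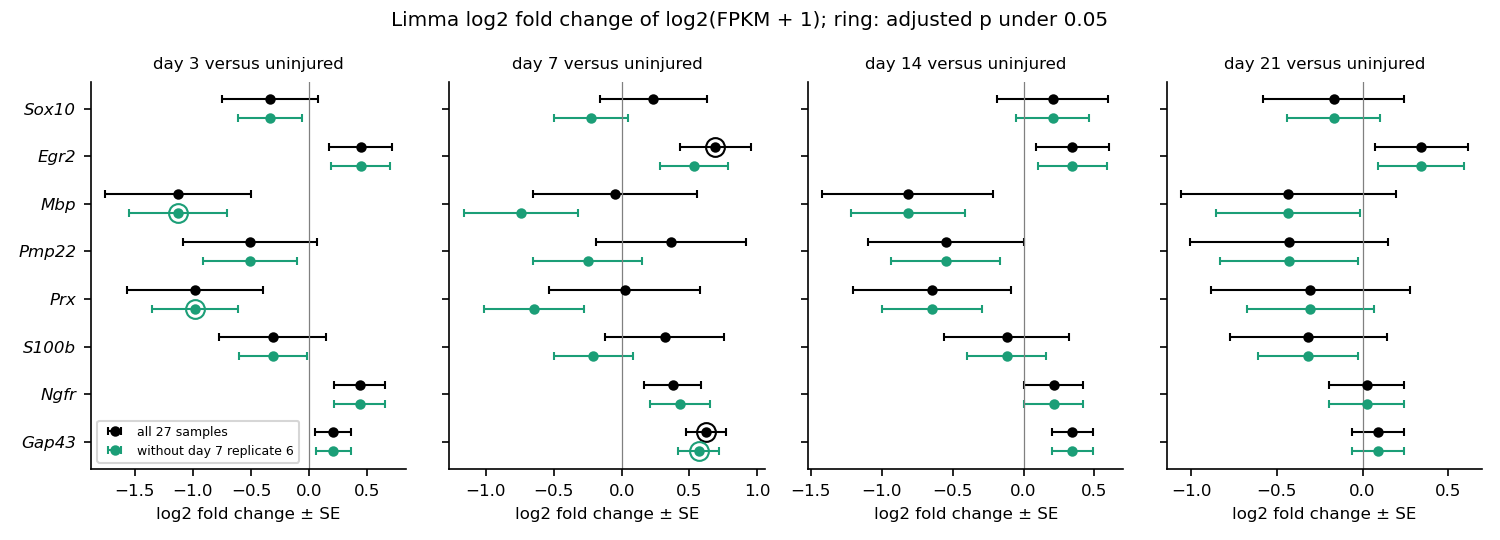
Log2 fold change of log2(FPKM + 1) from uninjured muscle at 3, 7, 14 and 21 days (x axis) for each gene (y axis), from limma, with all 27 samples (black) and without day 7 replicate 6 (green); bars are the SE and a ring marks an adjusted p under 0.05. Egr2 and Gap43 are ringed at day 7 with all samples, and Mbp and Prx at day 3 and Gap43 at day 7 without the sample.

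Counted over the group, 0 of the 8 genes passed the limma test at day 3, when 43.2% of the 14630 tested genes did. The count at an unadjusted p under 0.05 was also 0 in this fit, against 49.6% of all genes, and 0 were called with limma's voom weights, against 42.2%. The exact permutation test at day 3 gave p of 0.00794 (Mbp), 0.0159 (Ngfr), 0.0238 (Prx) and 0.0317 (Egr2), unadjusted for the 32 tests. It gave 0.167 or more for the other genes of the 8, and was not run over all tested genes. Without day 7 replicate 6 the count at day 3 was 2 (Mbp and Prx, both lower), against 44.4% of genes. In the fit of the 2 groups alone it was 4, with Mbp and Prx lower and Ngfr and Egr2 higher, against 49.5% of genes. The median log2 fold change of the 8 genes was -0.33, and 0.01 over all tested genes.

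At day 7, 2 of 8 genes passed, both higher (Egr2 and Gap43), against 29.4% of all tested genes in either direction and 15% higher. Gap43 was in this count through its day 7 level, and without a filter on low values Gap43 was the 1 gene called. Without replicate 6 this was 1 of 8 (Gap43), against 33.4%. The median log2 fold change of the 8 genes was 0.34, beside 0.03 over all genes.

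At day 14, 0 of 8 passed, against 20.3% of all genes, with 1 (Gap43) at an unadjusted p under 0.05, as for 34.7% of all genes, and 0 with voom weights (18.6%). The fit of the 2 groups alone called Gap43 there (limma adjusted p = 0.0456), against 25.6% of genes. The exact permutation test gave p = 0.0173 for Gap43 at day 14, unadjusted for the 32 tests. At day 21 again 0 of 8 passed, against 3.43% of all genes, with 0 at an unadjusted p under 0.05 (19.8%) and 0 with voom weights (1.93%). Both counts were also 0 without day 7 replicate 6. The 4 comparisons share the same uninjured samples and are not independent.

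Between successive times, 0 of 8 genes passed the limma test from day 3 to day 7 (0.0478% of all genes did), from day 7 to day 14 (0.335%) and from day 14 to day 21 (0%). Gap43 from day 3 to day 7 was the 1 gene of the 8 with an unadjusted p under 0.05 in these 3 comparisons, with a log2 fold change of 0.42 (SE 0.15, limma adjusted p = 0.147). From day 3 to day 21, 0 of 8 passed against 25.5% of all genes, with 0 at an unadjusted p under 0.05 in this fit. The exact permutation test gave an unadjusted p of 0.0159 for Ngfr from day 3 to day 21. Voom weights called 0 of 8 in all 4 of these comparisons, and so did the limma fit without day 7 replicate 6.

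Within groups, levels of Mbp, Pmp22, Prx, S100b and Sox10 varied together, less closely without day 7 replicate 6. Deviations from the group mean on the log2(FPKM + 1) scale had Pearson's r of 0.80 to 0.97 among Mbp, Pmp22, Prx, S100b and Sox10 (10 pairs, n = 27 samples). Without day 7 replicate 6 these values were 0.48 to 0.92 (n = 26). Between these 5 genes and Ngfr, Egr2 and Gap43 (15 pairs) they were -0.39 to 0.49 with all samples and -0.40 to 0.29 without it. The points share libraries and their scaling, and the values are descriptive. Uninjured replicate 3 and day 7 replicate 3 were the next highest samples for Mbp, Pmp22 and Prx. Uninjured replicate 3 had 10.9 FPKM of Mbp, 72.3 of Pmp22 and 4.87 of Prx, and day 7 replicate 3 had 8.35, 52.4 and 4.71 FPKM.

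**Figure D3:**
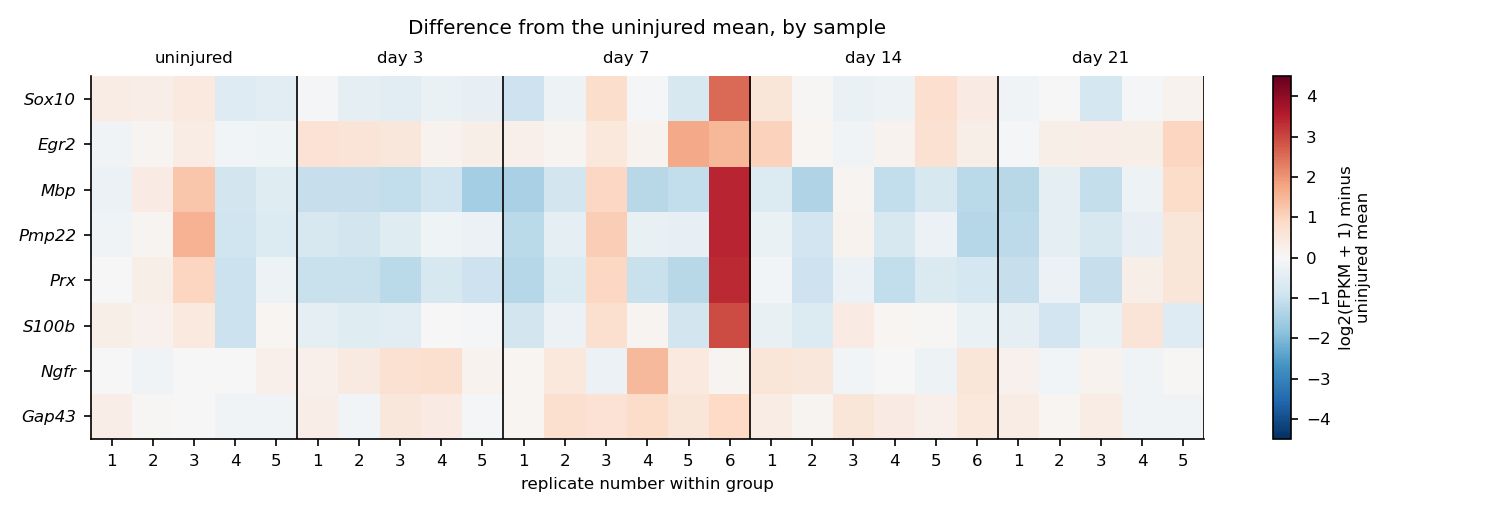
Difference of log2(FPKM + 1) from the uninjured mean (colour) for each gene (vertical) in each sample (horizontal, by group and replicate number). Day 7 replicate 6 is the reddest column for Mbp, Pmp22, Prx, S100b and Sox10, and the 5 day 3 columns are blue for Mbp and Prx.

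**Figure D4:**
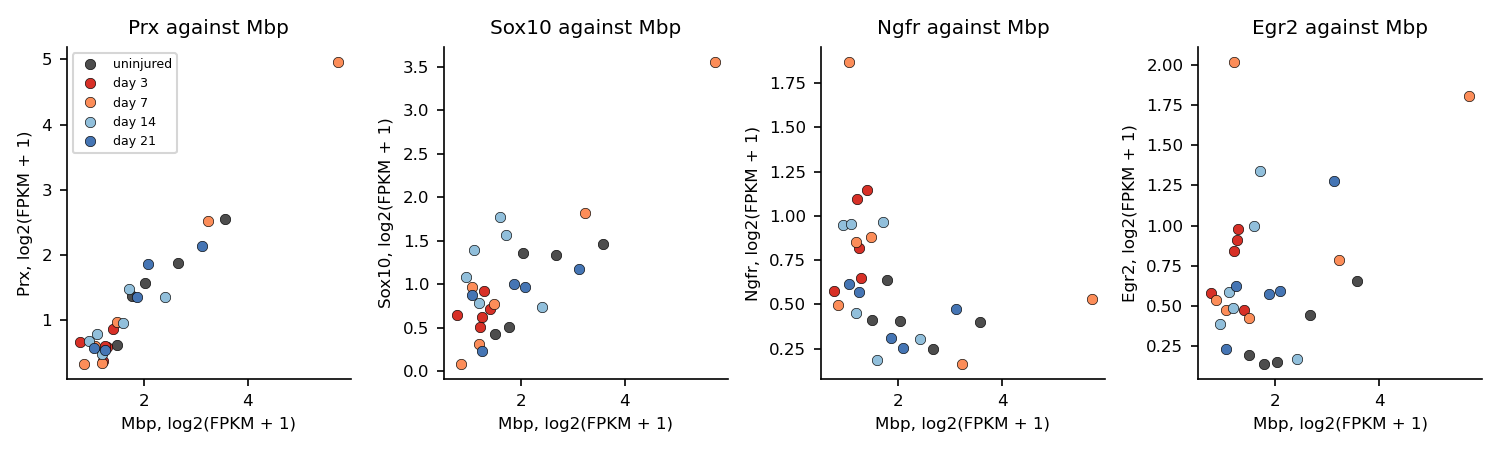
Levels of Prx, Sox10, Ngfr and Egr2 (y axes) against Mbp (x axes), all in log2(FPKM + 1), with 1 point per sample coloured by group. Prx follows Mbp over the whole range, whereas Ngfr takes low and high values at low Mbp levels.

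The FPKM ratio of Sox10 to Mbp had a median of 0.191 in uninjured muscle, and of 0.393, 0.255, 1.04 and 0.296 from day 3 to day 21. It was over 0.5 in 1 of 5 uninjured samples and in 5 of 6 day 14 samples, with a range of 0.154 to 1.44 at day 14 that covered the uninjured range of 0.162 to 0.511. The ratio of Prx to Mbp had medians between 0.373 (day 3) and 0.551 (day 14). These ratios were not tested.

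The genes whose levels over the 27 samples were most like those of the myelin genes were other myelin genes. Mal, a proteolipid of myelin, had Pearson's r of 0.97 with Mbp, 0.94 with Pmp22 and 0.95 with Prx. Prx and Mbp had r of 0.97 with each other, and 0.94 without day 7 replicate 6. Sox10 was most like Cldn19 (r = 0.89), a claudin of the Schwann cell, with a value of 0.73 without that sample. S100b was most like Gpr37l1 (0.87), Myh7 (0.86), the slow myosin heavy chain, and Prx (0.84), with values of 0.65, 0.55 and 0.61 without the sample. Ngfr was most like Dtx2 (0.76), Egr2 like Ahnak (0.80), and Gap43 like Rbp4 (0.70), none of which is in the nerve lists.

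Of 52 further nerve genes in 6 lists, 28 were tested, and their changes are given as log2 fold changes. In the myelin list (12 genes, 9 tested), 0 were called in either direction by limma at any of the 4 times. Over all tested genes the shares were 43.2%, 29.4%, 20.3% and 3.43% from day 3 to day 21. Without day 7 replicate 6, 8 were tested and 2 were lower at day 3, when 44.4% of all tested genes were called in either direction. These were Cldn19, with a log2 fold change of -0.64 (limma adjusted p = 0.0314), and Ncmap, a myelin membrane protein, with -0.74 (adjusted p = 0.0497). From day 3 to day 21 the median log2 fold change of the myelin list was -0.27, 0.23, -0.14 and -0.02, beside 0.01, 0.03, 0.02 and 0.01 over all tested genes. Without that sample the day 7 median was -0.24. Summed over the list, uninjured samples had 6.54 to 23.2 FPKM and day 3 samples 6.61 to 10.9 FPKM, with medians of 8.41 and 8.31 FPKM. The gene with the highest level in the list was Cnp, an enzyme of myelin that other cells also make, with a median of 4.0 FPKM in uninjured muscle and 5.75 FPKM at day 3, so that the sum says little of the other genes. The median was lower at day 3 for 8 of the 12 genes. For 3 of the 12, Cldn19, Fa2h and Ugt8a, the last of which was not tested, the day 3 samples all lay below the uninjured ones. The same held for 16.5% of all tested genes. Cldn19 had a median of 0.757 FPKM in uninjured muscle and 0.169 FPKM at day 3, and Mal 1.22 and 0.458 FPKM, with overlap. These genes are named after their values were seen. The later sums were 5.69 to 11.9 FPKM (day 14) and 4.92 to 18.4 FPKM (day 21), so that all groups overlapped.

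**Figure D5:**
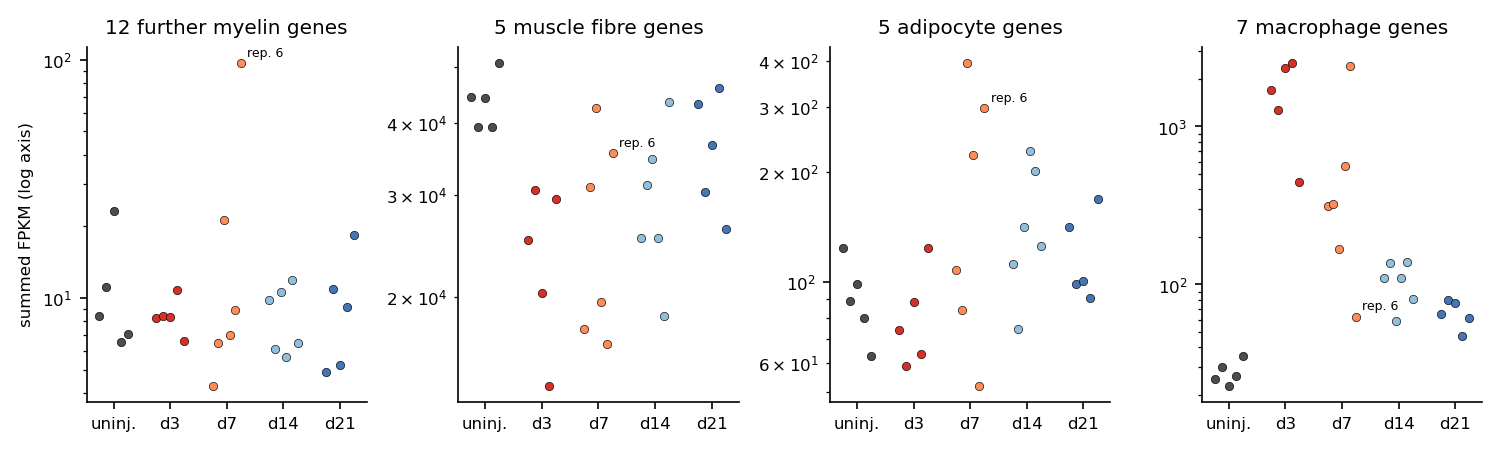
Summed FPKM (y axes, log scale) of the 12 further myelin genes, 5 muscle fibre genes, 5 adipocyte genes and 7 macrophage genes in each sample (points) by group (x axes), with day 7 replicate 6 named. The myelin sums of all groups overlap, and replicate 6 lies at 96.7 FPKM for myelin and at 62.6 FPKM for macrophage genes.

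Some genes known to act upstream of the myelin programme rose after VML. Of 8 lineage regulators and neuregulin receptors (5 tested), 4 were higher by limma on days 3 and 7, 2 on day 14 and 0 on day 21, where 23.4%, 15%, 9.02% and 1.74% of all tested genes were higher, with median log2 fold changes of 0.71, 0.49, 0.33 and 0.24. Nab2, a partner of Egr proteins, rose by 1.11 (SE 0.21, adjusted p = 0.000158) at day 3. Erbb3, the neuregulin receptor of Schwann cells, rose by 0.76 (SE 0.19, adjusted p = 0.00186), from a median of 0.905 to 2.66 FPKM. Its partner Erbb2 rose by 0.71 and Zeb2, a repressor that Schwann cells need to myelinate, by 0.61. Without day 7 replicate 6, 3 were higher at day 7, since Erbb3 no longer passed (0.42, adjusted p = 0.0816). At day 14 Nab2 (0.72) and Erbb2 (0.62) were still higher. The tested gene Nab1 was called at none of the 4 times. Without day 7 replicate 6 it changed by 0.19, 0.006, 0.19 and -0.12 from day 3 to day 21. Nrg1, Pou3f1 and Adgrg6 were too low to be tested. From uninjured muscle to day 3 the medians of Pou3f1 (0.293 to 0.103 FPKM) and Adgrg6 (0.095 to 0.090) were lower, and that of Nrg1 (0 to 0.048) was higher. Macrophage genes, of which 7, 6, 3 and 0 of 7 were called higher at these times, summed to 22.7 to 35.5 FPKM in uninjured muscle, 447 to 2515 at day 3 and 62.6 to 2424 at day 7, with none at 0. Later the sums were 58.7 to 139 FPKM (day 14) and 47.0 to 79.4 FPKM (day 21). Their part in the rise of Erbb2, Erbb3, Nab2 and Zeb2 was not tested.

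Of the genes of immature and non-myelinating Schwann cells, 2 of 8 were tested and both were called higher on days 3, 7 and 14, against the shares of 23.4%, 15% and 9.02% of all genes. Ncam1, an adhesion molecule that regenerating muscle also makes, rose by 2.23 (SE 0.30, limma adjusted p = 3.47e-06) at day 3 and was still 1.27 higher (adjusted p = 0.0179) at day 21. Scn7a, a sodium channel of non-myelinating Schwann cells, rose by 0.65, 0.70 and 0.37 on these days. The satellite cell and myoblast genes, 4 of 5 called higher at day 3 and 2 of 5 at each later time, summed to 23.4 to 33.2 FPKM in uninjured muscle and to 80.1 to 321 FPKM at day 3, with none at 0. Their part in the Ncam1 level was not tested.

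In the list of repair Schwann cell genes, 4 of 8 were tested, with 1, 2, 2 and 0 called higher from day 3 to day 21, beside the same 23.4%, 15%, 9.02% and 1.74% of all genes. Runx2 was higher at day 3 (0.70) and day 7 (0.33). It reached 0.5 FPKM only in samples of these days, so that its levels there decided its inclusion. Its highest levels were 0.118 FPKM in uninjured muscle, 0.473 at day 14 and 0.308 at day 21. Runx2 was thus in the counts of days 3 and 7 through the levels tested, and no test without the filter is given for it. Jun, the factor known for driving the repair state, was higher at day 7 (0.63, limma adjusted p = 0.0469) and day 14 (0.91, adjusted p = 0.00896). The neurotrophic factor Gdnf was higher at day 14 (0.63, limma adjusted p = 0.0300), and without day 7 replicate 6 also at day 7 (0.68, adjusted p = 0.00817). Jun was at 17.3 to 27.7 FPKM in uninjured muscle, a level that other cells of muscle can also give. Shh, Olig1, Lif and Fgf5 were too low to be tested.

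Of the neurotrophins and their receptors, 4 of 8 were tested. Ntf5, neurotrophin-4, which muscle fibres make, fell by 0.77 (SE 0.26, limma adjusted p = 0.0164) on day 3 and fell by 0.98 (SE 0.24, adjusted p = 0.00472) on day 7. It was the 1 gene of the list called lower at these times, when 19.8% and 14.4% of all genes were. Its median was 6.28 FPKM in uninjured muscle, and 3.56, 2.22, 4.29 and 5.43 FPKM over the following times. The muscle fibre genes were also lower, 4 of 5 called at day 3 and 3 of 5 at day 7, and summed to 39280 to 50676 FPKM in uninjured muscle and 14047 to 30610 FPKM at day 3. Their part in the Ntf5 level was not tested. No gene of this list was called higher at any of the 4 times.

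Among 8 axon genes, 4 were tested and the neurofilament genes Nefl, Nefm and Nefh were not. From day 3 to day 21, 2, 1, 1 and 1 were called higher, beside 23.4%, 15%, 9.02% and 1.74% of all genes. The tested genes Prph and Stmn2 were called at none of these times. Without day 7 replicate 6, Stmn2 changed by -0.07, -0.14, -0.10 and -0.15 from day 3 to day 21. Prph changed by 0.17, 0.28, 0.35 and 0.48 in that fit (limma adjusted p of 0.433 or more for both genes). Tubb3, a neuronal tubulin, rose by 2.50 (SE 0.40, limma adjusted p = 3.35e-05) at day 3 and passed at none of the later times. Uchl1, a neuronal deubiquitinase, rose at all 4 times, by 1.65, 1.39, 2.22 and 2.14 with adjusted p of 0.00252 or less. Uchl1 had a median of 3.45 FPKM in uninjured muscle, 20.9 at day 14 and 21.2 at day 21. Muscle cells can make both, and with the neurofilament genes below the filter their source was not tested.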

How the data were processed

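Polyadenylated RNA of 27 tibialis anterior muscles was sequenced from non-directional libraries. The authors aligned the reads with HISAT2 2.0.5, counted them per gene with featureCounts 1.5.0-p3 and deposited 1 table of FPKM. The genome build is not given in the sources used here; the coordinates of all 8 genes matched GENCODE M21 on GRCm38. Groups and replicate numbers came from the sample titles. FPKM times gene length gave whole reads for 100% of values (within 0.01), from which the depth of 14376395 to 24436763 reads was taken. For the 14630 genes that reached 0.5 FPKM in 5 or more samples, log2(FPKM + 1) was fitted by limma 3.58.1 (R 4.3.3), with 1 mean per group, all 27 samples and a variance trend. Tests were two-sided, with Benjamini-Hochberg adjustment within each comparison at 0.05; fold changes on this scale understate those of low genes. Exact permutation tests used scipy 1.17.1. The fit was tested on simulated data. The gene group, the lists and the rule for named genes (the 8 genes, for the lists up to 4 called genes with the most extreme changes per comparison, and the 3 most correlated genes of each) were chosen with earlier results of these data known. Some genes of the lists are not reported here, and the counts, medians and sums leave them out. Alternatives were pseudocounts, filters, scalings, voom weights, sample weights, replicate blocks, fits of 2 groups and samples left out.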

Additional observations from a re-analysis of the deposited data

Results flagged for a closer look

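A sample was picked out when its distance from the nearest other sample, in FPKM, exceeded Dixon's critical value for the group. Chance does this for about 1 in 20 groups of normally distributed values, which FPKM need not be. Groups of different genes also share samples, so a count over groups cannot be set against that rate. A sample was picked out in 8 of the 40 groups examined (8 genes in 5 groups), each time the highest. Of these, 5 came from day 7 replicate 6, with 52.1 FPKM of Mbp (next highest 8.35), 265 FPKM of Pmp22 (52.4), 30.1 FPKM of Prx (4.71), 15.9 FPKM of S100b (2.61) and 10.8 FPKM of Sox10 (2.54). Pmp22 in uninjured replicate 3 was at 72.3 FPKM, with the next uninjured sample at 25.9. S100b in day 21 replicate 4 was at 2.29 FPKM, with the next at 0.804. Ngfr in day 7 replicate 4 was at 2.65 FPKM, with the next at 0.840. The causes were not tested.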

How the results depend on the processing

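Leaving out 1 sample at a time gave 0 to 2 called genes of the 8 at day 3, where day 7 replicate 6 gave 2 and day 7 replicate 4 gave 1, and 1 to 2 at day 7, where 13 of the 27 samples lost Egr2; at the other times and between times the count was 0 in all such fits. At day 3 (0 of 8 as reported), 4 genes were called with only the 2 groups in the fit and, in an alternative chosen after seeing the data, with sample quality weights, and 1 (Ngfr) with FPKM rescaled to a common sum and, also chosen after seeing the data, with FPKM scaled to the reads of each sample itself. At day 7 (2 as reported) the count was 1 without a filter, with quantile normalization, with voom weights, with only the 2 groups, without day 3 replicate 5 and day 7 replicate 5 together, and, both chosen after seeing the data, without uninjured replicate 3 and day 7 replicate 6 together and without both the filter and day 7 replicate 6. It was 3 with the common sum, which added Ngfr, and 2 with sample quality weights, with Ngfr in place of Egr2. It was 0 with an FPKM minimum of 1, which left Egr2, Ngfr and Gap43 untested. With only the 2 groups in the fit, 1 gene was called at day 14 and 1 from day 3 to day 21.

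Direction reversed only for log2 fold changes from uninjured muscle that did not pass the test. With FPKM rescaled to a common sum, which moved the median of all tested genes by 0.51 (day 3), 0.48 (day 7), 0.29 (day 14) and 0.12 (day 21), Pmp22 (0.28), S100b (0.090) and Sox10 (0.028) at day 3, Mbp at day 7 (0.41) and S100b at day 14 (0.12) turned positive. On that own-reads scale Pmp22 (0.12) and S100b (0.010) did so at day 3, Mbp at day 7 (0.30) and S100b at day 14 (0.079). With voom weights the day 7 values of Prx (-1.04), Sox10 (-0.74) and S100b (-0.25) were negative. Sample weights gave Prx -0.37, Sox10 -0.020 and Pmp22 -0.0027 at day 7. Prx at day 7 was -0.38 and -0.12 with pseudocounts of 0.1 and 0.5 and -0.11 with quantile normalization, which also gave Ngfr -0.059 at day 21. Without uninjured replicate 3 and day 7 replicate 6, Prx (-0.41), Sox10 (-0.12) and S100b (-0.10) were negative at day 7, and without day 3 and day 7 replicates 5 Mbp was 0.16. Leaving out 1 sample at a time gave ranges at day 7 of -0.74 to 0.27 for Mbp, -0.25 to 0.76 for Pmp22, -0.65 to 0.28 for Prx, -0.21 to 0.54 for S100b and -0.23 to 0.47 for Sox10, with the negative end from replicate 6 (the same values without a filter), and of -0.019 to 0.078 for Ngfr at day 21. Apart from these scalings the causes were not tested.

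Same-numbered samples of different groups had correlations of their deviations of -0.52 to 0.57 over 51 pairs (median -0.003). Of the 27 samples, 11 correlated best with their own number, and whether the numbers mark pairs was not tested. A block for the number or for the letter in the sample descriptions gave 1 called gene at day 7. Over all tested genes these blocks gave 795 and 1233 called genes at day 21 (502 as reported). With the number as block Prx (-0.30) and Sox10 (-0.014) were negative at day 7 and Sox10 (-0.043) at day 14, and with the letter Prx at day 7 (-0.24). Counts over all genes moved by more than 1.5 times mostly where they were small: 49 to 2471 at day 21 (502 as reported), 1 to 2173 from day 3 to day 7 (7) and 5 to 113 from day 7 to day 14 (49). They were 6513 at day 7 (4296) and 1785 at day 14 (2969) with the common sum, and 6472 from day 3 to day 21 (3728) with sample weights. Depth limits Gap43 most, with 10 reads in the median sample.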
